A study of Mus musculus with 8 samples.

Results

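The Bcl2 family holds the proteins that decide whether the mitochondrial outer membrane is breached during programmed cell death. Its transcripts were followed here in whole kidneys of mouse embryos at E13.5, a stage of midgestation, by poly(A) RNA sequencing. The 10 members were chosen by name, as the rows of the deposited table called Bcl2, Bcl2l1, Mcl1, Bax, Bak1, Bcl2l11, Bbc3, Pmaip1, Bid and Bad. All 10 were found among the 23337 genes of the table, and all 10 passed the filter for testing, a mean normalised count of at least 10.

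There were 2 groups of 4 libraries on a mixed C57BL/6 background. Controls were Smo(flox/+): their second copy of Smo was wild type, and their labels name no Cre. Mutants were Foxd1Cre;Smo(flox/-): their second copy was null, and Cre was driven from Foxd1, a gene of the stromal progenitors of the kidney. Smo is the membrane protein that passes on the hedgehog signal. All 8 kidneys thus carried 1 floxed copy, and the mutants also carried Cre and lacked 1 copy of Smo in every cell, so a difference belongs to the whole genotype. The labels do not say whether kidneys were pooled or came from separate embryos. The spread behind each p-value is therefore that of these samples alone, and how much of it is technical is not known.

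In the mitochondrial route of apoptosis, the pro-survival proteins Bcl2, Bcl2l1 (Bcl-xL) and Mcl1 hold the pore-forming effectors Bax and Bak1 in check. BH3-only proteins, named for the short helix they share with the rest of the family, sense stress or loss of survival signals and tip this balance by binding the pro-survival proteins or the effectors. The family matters in the embryonic kidney: mice without Bcl2 have small kidneys with excess death in the nephrogenic mesenchyme and later cysts, and loss of a copy of the BH3-only gene Bcl2l11 (Bim) relieves this. Much of the control of these proteins is exerted on the protein itself, by cleavage, phosphorylation or turnover, which transcript levels do not show.

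The libraries held 10288191 to 13494079 reads in genes. Smo was at 2152 to 2294 normalised counts in the controls and at 509 to 553 in the mutants, so every library matched its label. Markers of kidney compartments were present in all libraries. Transcripts of tissue around the kidney differed by library: the summed level of 10 skeletal muscle markers was 3836 in control 2 and 2183 in mutant 2, against 195 to 726 in the other 6, and that of 6 liver markers was 730 in control 1, against 11.8 to 144 elsewhere. Control 4 stood farthest from the other controls, with a chi-square per degree of freedom of 7.41 to 10.98 against each, where pairs of the other 3 gave 3.28 to 4.82. Control 4 (1518) and mutant 2 (1390) were the libraries with transcript of the Y-linked gene Ddx3y, which reached at most 1.7 in the rest, so these were the male kidneys. Among mutants, pairs with mutant 2 gave a chi-square per degree of freedom of 5.49 to 6.07, and the other pairs 2.89 to 4.07. The chi-square took in the sex-linked genes, and their part in it was not tested. Fold changes that rest on control 2, control 4 or mutant 2 are given below also without them.

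None of the 10 members passed the test between genotypes, which was limma with Benjamini-Hochberg adjustment over the 13692 genes tested, at an adjusted p under 0.05. By that rule 0.57% of all tested genes were called. The edgeR quasi-likelihood test called 0 members as well (0.577% of all genes), while DESeq2 called 1, Bcl2 (1.56% of all genes). At an unadjusted p under 0.05, limma gave 1 of 10 members, Bcl2, against 8.7% of all tested genes. In no member did the 4 mutants lie entirely above or entirely below the 4 controls, which happened for 5.31% of tested genes. Fold changes were positive for 5 members and negative for 5, against 51.9% positive over all tested genes, and their median on the log2 scale was -0.0032, beside 0.0037 for all. The adjusted p-values below are from limma unless stated. Fold changes are mutant over control of log2(normalised count + 1), a scale that shrinks the differences of genes with few reads. Intervals are 95% intervals of the difference, not adjusted for the number of genes.

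**Figure D1:**
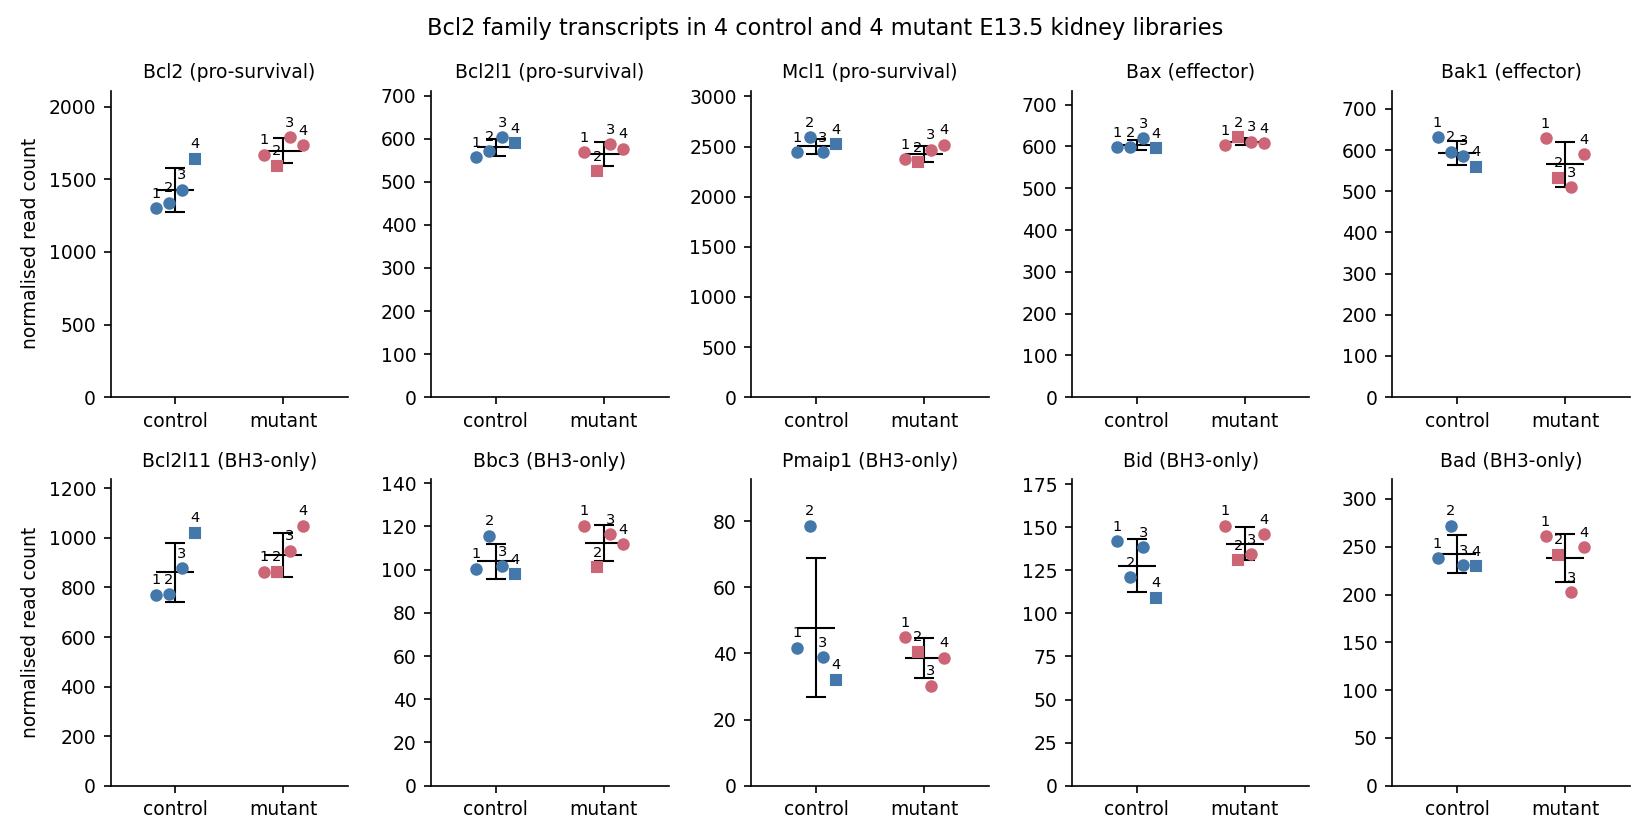
Normalised read count of each member (vertical axes, each from 0) in 4 control (blue) and 4 mutant (red) libraries, with the library number above each point, squares for the 2 male kidneys (control 4 and mutant 2), and the mean and SD in black. The groups overlap in every panel. In the panel of Bcl2, 3 mutants lie above all controls, and in that of Pmaip1 control 2 stands at 78.6.

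Members can be ranked by level only per length of transcript. As normalised count per kilobase of annotated exon, over all 8 libraries, Mcl1 came first at 721 and Bax second at 385. They were followed by Bak1 at 241, Bcl2 at 171, Bcl2l1 at 125, Bcl2l11 at 112, Bad at 94.0, Bbc3 at 50.9, Bid at 37.8 and Pmaip1 at 15.8. The median of the 12402 tested genes with a length was 75.8. Mcl1 thus stood at the 95.3 percentile of tested genes by level per length, Bax at the 89.2 and Pmaip1 at the 18.5 percentile.

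By length of annotated exon, both effectors therefore had more transcript than the pro-survival Bcl2 and Bcl2l1. All BH3-only genes had less than any of these except that Bcl2l11 overlapped Bcl2l1. The per-length ranges of neighbouring members did not overlap between libraries, with exceptions for Bcl2l1 (115 to 132) beside Bcl2l11 (96.0 to 131), and for Bcl2l11 beside Bad (79.3 to 106). The order depends on the length used. Over the longest annotated transcript in place of all exons, Bcl2l1 (223) stood above Bcl2 (217), and the other 8 kept their places. Bak1 (243) was then only a little above both, and overlap between libraries was not examined at that length.

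**Figure D2:**
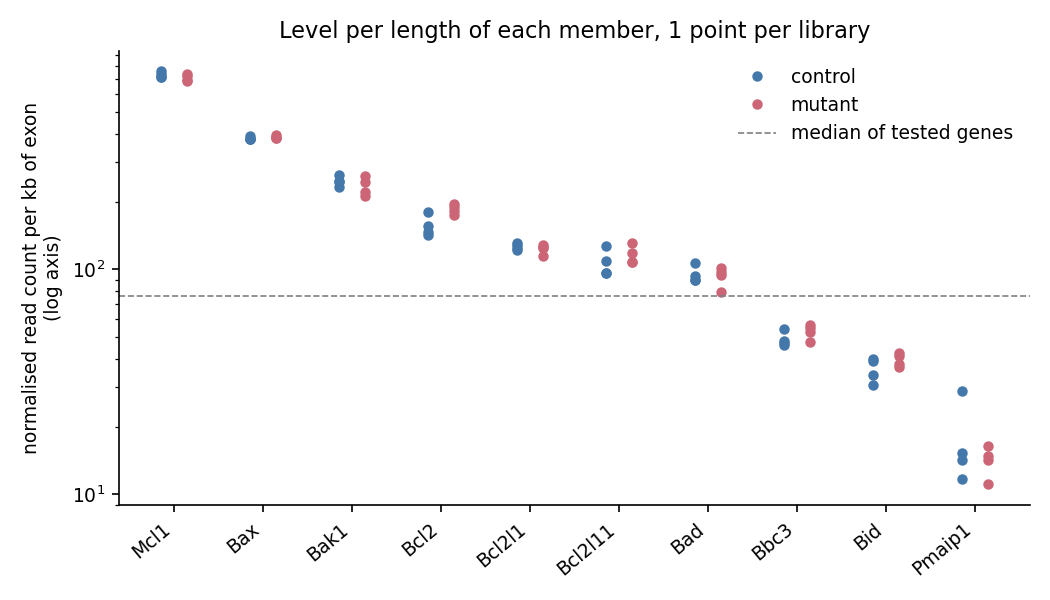
Normalised read count per kilobase of exon (vertical axis, log scale) for each member, 1 point per library, control in blue and mutant in red, with the median of 12402 tested genes as a dashed line. Mcl1 lies highest at about 721 and Pmaip1 lowest at about 15.8, and 7 of the 10 members lie above the line in every library.

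Among the pro-survival genes, Bcl2 had the smallest p of the 10 members. It lies on chromosome 1 from 106538178 to 106714274 on the minus strand (GRCm38, GENCODE vM21). Its normalised count was 1301, 1338, 1430 and 1642 in controls 1 to 4 and 1670, 1593, 1790 and 1737 in mutants 1 to 4. Control 4 lay above mutant 2 and below the other 3 mutants, and the other 3 controls lay below every mutant. The means were 1428 ± 153 and 1697 ± 85.1 (SD, n = 4 each), a log2 fold change of 0.25 (SE 0.068), or 1.19-fold with an interval from 1.08 to 1.32. It did not pass over all genes (p = 0.00306, adjusted p = 0.168, rank 248 by p of the tested genes), and an exact two-sided permutation test over the 8 samples gave p = 0.0571, where 0.0286 is the smallest that 70 arrangements allow. The authors' deposited table lists an adjusted p of 0.191 for Bcl2 and of 1 for the other 9 members.

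Whether Bcl2 passed depended on the test and on which libraries were kept. Without control 4 the log2 fold change of Bcl2 was 0.32 (adjusted p = 0.0112), and Bcl2 was the single member called, beside 1.35% of all genes. Among the 6 female kidneys, without control 4 and mutant 2, Bcl2 was at 1301 to 1430 in 3 controls and at 1670 to 1790 in 3 mutants, with a log2 fold change of 0.35 (adjusted p = 0.00993). It was again the single member called, beside 1.07% of all genes. The groups of female kidneys did not overlap for Bcl2 and overlapped for the other 9 members, beside 16.8% of all tested genes. The male kidneys, 1 of each genotype, were at 1642 in the control and 1593 in the mutant, with no replicate. DESeq2 on the recovered reads also called Bcl2 (log2 fold change 0.25, adjusted p = 0.0451). So did limma with the sample number as a term (0.25, adjusted p = 0.0278), beside 1.69% of all genes. The labels name no pairs, and the sample numbers were not taken as pairs. No other setting that left out libraries called Bcl2. Without both libraries numbered 2, the 2 with most muscle transcript, the log2 fold change was 0.25 (adjusted p = 0.509). That fit called 2 of all tested genes, against 78 with all 8 libraries. Without controls 1 and 2, the log2 fold change of Bcl2 was 0.15 (adjusted p = 0.538), with 29 of all tested genes called. A male kidney cannot be told apart from the single library that stands for it in each group.

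**Figure D3:**
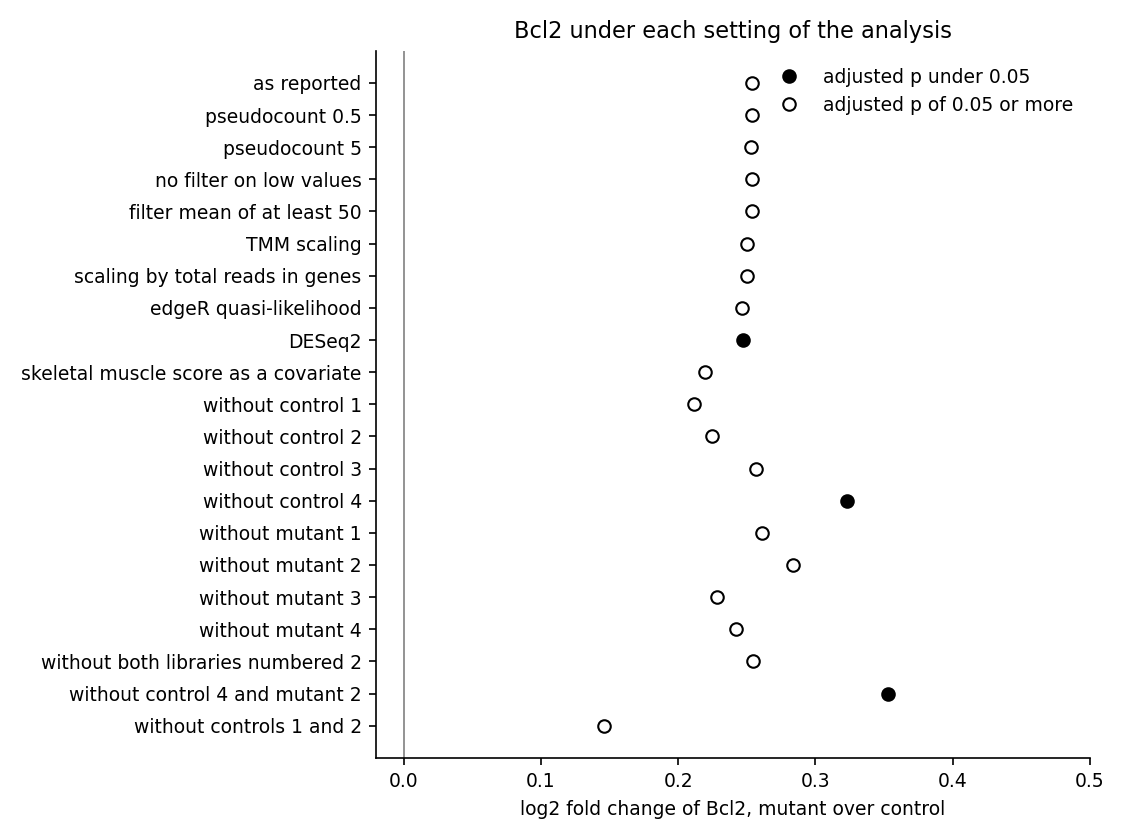
Log2 fold change of Bcl2 (horizontal axis, mutant over control) as reported and under 20 of the 21 alternative settings, all but the fit with the sample number as a term, filled where the adjusted p was under 0.05. All points lie to the right of 0, between 0.15 and 0.35, and 3 are filled: DESeq2, without control 4, and without control 4 and mutant 2. The limma fit left out gave 0.25 with an adjusted p under 0.05 (0.0278).

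Kidney compartment markers were measured beside Bcl2. The summed level of 10 nephron progenitor markers, none at 0 in any library, was 12330 to 14040 in the controls and 15320 to 15620 in the mutants, and 2 of the 10 (Itga8 and Pax2) were called higher, against 0.124% of all tested genes. Among controls the sum was highest in control 4, as was Bcl2. It was lowest in control 2, while Bcl2 was lowest in control 1. Among mutants the sum was highest in mutant 2 (15620), where Bcl2 was lowest (1593). The sum of 10 stromal markers was 30700 to 32170 in the controls and 24740 to 29440 in the mutants. Of these 10, 1 (Foxd1) was called lower, against 0.446% of all tested genes, and fold changes were negative for 8 and positive for 2. Foxd1 is also the gene from which Cre was driven in the mutants, and the part of the Cre allele in its level was not tested. The sum of 10 ureteric markers was 6394 to 8513 in the controls and 7185 to 9573 in the mutants, with none called. The part of these markers in the level of Bcl2 was not tested. In whole kidneys, more cells of a type and more RNA per cell cannot be told apart.

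The 250 bases before the RefSeq start of Bcl2 are shown with those of Bcl2l11, the member whose levels followed those of Bcl2 most closely (below). Capitals mark the letters of a GC box (GGGCGG, the element bound by Sp1, or CCGCCC on the other strand) or of a CRE core (TGACGT, or ACGTCA on the other strand). The strand printed is that of the gene, 5′ to 3′, from RefSeq GRCm38.p6.
Bcl2, chr1:106714291-106714540, minus strand: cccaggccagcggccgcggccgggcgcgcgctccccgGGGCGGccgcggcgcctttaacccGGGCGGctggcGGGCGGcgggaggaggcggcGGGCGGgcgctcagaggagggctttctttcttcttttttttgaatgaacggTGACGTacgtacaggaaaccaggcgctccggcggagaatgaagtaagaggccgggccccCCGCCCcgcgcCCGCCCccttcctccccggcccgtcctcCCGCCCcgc
Bcl2l11, chr2:128125788-128126037, plus strand: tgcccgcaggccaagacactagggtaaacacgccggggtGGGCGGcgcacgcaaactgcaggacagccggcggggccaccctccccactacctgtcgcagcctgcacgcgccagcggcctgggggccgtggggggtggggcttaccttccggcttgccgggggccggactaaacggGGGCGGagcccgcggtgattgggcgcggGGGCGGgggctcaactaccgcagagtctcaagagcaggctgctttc

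These windows are rich in G and C, at 74.8% for Bcl2 and 72.0% for Bcl2l11, against a median of 52.4% over 32851 windows of the same length in the table of promoters. The window of Bcl2 held 7 GC boxes and 1 CRE core, and that of Bcl2l11, the first of its 2 starts, held 3 GC boxes and no CRE core. Other members had as many: Bbc3 held 5, 1 and 7 GC boxes in its 3 windows, and Bid and the first start of Bad held 3. At least 3 GC boxes were found in 8.5% of all windows and at least 7 in 0.4%, and a CRE core in 6.5%. The GLI consensus of hedgehog-responsive promoters (GACCACCCA, or TGGGTGGTC on the other strand) was found in none of the 15 windows of the 9 members searched and in 0.2% of all windows. These matches describe the letters of a short window and are not binding sites.

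Bcl2l1 encodes Bcl-xL, which keeps neurons and red cell precursors alive, and lies on chromosome 2 from 152780668 to 152831728. Its counts were 557, 571, 604 and 589 in the controls (580 ± 20.5) and 569, 525, 588 and 577 in the mutants (565 ± 27.6). The groups overlapped, with mutant 2 alone below all controls. On the log2 scale the fold change was -0.04 (adjusted p = 0.902), 0.973-fold with an interval from 0.900 to 1.05. Summed red cell markers, of which Hba-a1 was at 0 in every library, were at 6201 to 11960 in the controls and 6321 to 13130 in the mutants, with none of the 8 tested called. Their part in the level of Bcl2l1 was not tested.

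Mcl1, a short-lived pro-survival protein, lies on chromosome 3 from 95658788 to 95663176. It was the member with the most reads, 2199 to 2875 per library. Counts were 2446, 2593, 2443 and 2523 in the controls (2501 ± 71.4) and 2375, 2342, 2467 and 2519 in the mutants (2425 ± 81.5). Mutants 1 and 2 lay below all controls and mutants 3 and 4 among them. The log2 fold change was -0.04 (adjusted p = 0.815), 0.970-fold with an interval from 0.919 to 1.02.

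The effectors come next. Bax, the most even member, on chromosome 7 from 45461697 to 45466898, was at 598, 597, 620 and 596 in the controls (603 ± 11.5) and at 604, 622, 612 and 608 in the mutants (611 ± 7.86). The groups overlapped, and all 8 libraries lay between 596 and 622. The difference in Bax was 0.02 on the log2 scale (adjusted p = 0.946), 1.01-fold with an interval from 0.953 to 1.08. The spread of Bax within groups, a coefficient of variation of 1.9% in controls and 1.29% in mutants, was below the 3.96% and 4.15% that counting reads alone would give on average. It had 546 to 703 reads per library.

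Bak1, the second effector, lies on chromosome 17 from 27019810 to 27029009. It was at 631, 596, 586 and 559 in the controls (593 ± 29.7) and at 629, 534, 510 and 591 in the mutants (566 ± 54.3). Mutants 2 and 3 lay below all controls. Its log2 fold change was -0.07 (adjusted p = 0.851), 0.951-fold with an interval from 0.856 to 1.06. Within groups it varied by 5.003% in controls and 9.60% in mutants, against 3.99% and 4.30% from counting alone.

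**Figure D4:**
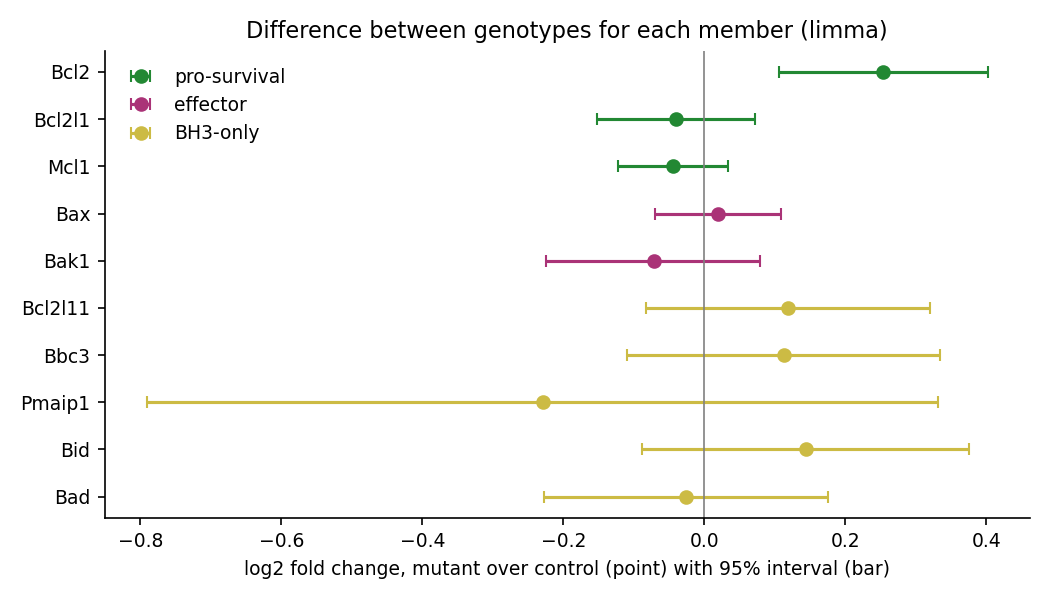
Log2 fold change of each member, mutant over control (points), with its 95% interval from limma (bars), coloured by role. The interval of Bcl2 (0.11 to 0.40) lies above 0, and those of the other 9 members include 0, from the narrow bars of Mcl1 and Bax to that of Pmaip1 (-0.79 to 0.33).

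Of the BH3-only genes, Bcl2l11 had the most reads. It encodes Bim, which binds all the pro-survival proteins, and it lies on chromosome 2 from 128126038 to 128162547. Its counts were 771, 773, 877 and 1021 in the controls (860 ± 118) and 863, 864, 949 and 1049 in the mutants (931 ± 88.4). The groups overlapped widely, with control 4 above 3 of the mutants. The log2 fold change was 0.12 (adjusted p = 0.811), 1.09-fold with an interval from 0.944 to 1.25. Its log2 fold change was 0.20 without control 4 (adjusted p = 0.266) and 0.24 without control 4 and mutant 2 (adjusted p = 0.237). Without controls 1 and 2, an unplanned setting, its log2 fold change was -0.03 (adjusted p = 0.957). Of 21 alternative settings, only this 1 changed the sign for Bcl2l11.

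Of the members compared, Bcl2l11 followed Bcl2 most closely from library to library. In the controls both genes were lowest in control 1 and highest in control 4, with the same order between. Among mutants both were higher in libraries 3 and 4 than in 1 and 2. Pearson's r of their log2 values over the 8 libraries was 0.821, and 0.903 after each group's mean was removed, given as a description. The points share genotype and library, and r was not computed without control 4, the highest control for both genes. By r over the 8 libraries, Bcl2l11 ranked 291 among 11460 other genes averaging 50 or more. Among the other members with a mean of at least 50, r ran from -0.541 for Bak1 to 0.329 for Bbc3. After group means were removed, it ran from -0.546 for Bid to 0.673 for Bcl2l1, with Mcl1 at 0.346.

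**Figure D5:**
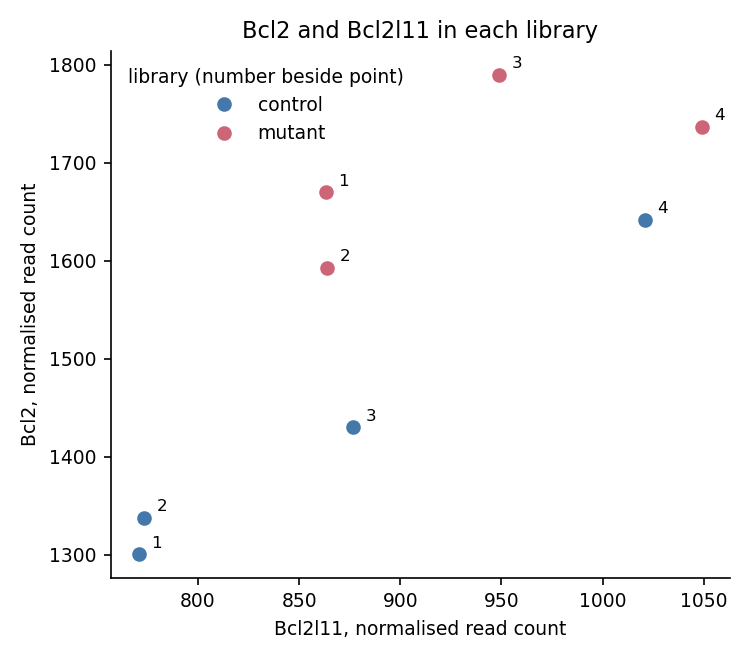
Normalised read count of Bcl2 (vertical axis) against that of Bcl2l11 (horizontal axis), 1 point per library with its number, control in blue and mutant in red; neither axis starts at 0. Both genes are lowest in control 1 (771 and 1301), and control 4 (1021 and 1642) lies near mutant 4 (1049 and 1737).

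The ratio of the 2 genes varied less than either gene in controls. The count of Bcl2 was 1.61 to 1.73 times that of Bcl2l11 in the controls and 1.66 to 1.94 times in the mutants. Mutant 4, at 1.66, lay among the controls and the other 3 mutants above them. For Bcl2 to Bax the ratio was 2.18, 2.24, 2.31 and 2.76 in controls 1 to 4 and 2.77, 2.56, 2.93 and 2.86 in the mutants. This repeats the pattern of Bcl2, with control 4 above mutant 2 and below the other 3, since Bax hardly varied. The ratio of Mcl1 to Bcl2l1 was 4.05 to 4.54 in controls and 4.17 to 4.46 in mutants and overlapped throughout. These are ratios of counts, not of protein, and carry the lengths of the genes.

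Bbc3 encodes Puma, a BH3-only protein induced by p53, and lies on chromosome 7 from 16308393 to 16318205. It was at 100.4, 116, 102 and 97.8 in the controls (104 ± 8.08) and at 120.3, 101, 116 and 112 in the mutants (112 ± 8.29). Mutants 1 and 3 lay above all controls. For Bbc3 the log2 fold change was 0.11 (adjusted p = 0.836), 1.08-fold with an interval from 0.927 to 1.26. With 95 to 126 reads per library, counting alone gives a variation of 9.55% in controls, above the 7.77% seen.

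Pmaip1 encodes Noxa, a second BH3-only protein that p53 can induce and that binds Mcl1. It was the lowest member, with 27 to 76 reads per library. Its counts were 41.7, 78.6, 38.8 and 32.0 in the controls (47.7 ± 21.0) and 44.9, 40.5, 30.2 and 38.7 in the mutants (38.6 ± 6.13). Control 2, the library with the most muscle transcripts, stood apart from the others, and without it the groups covered much the same range. The log2 fold change was -0.23 (adjusted p = 0.885), 0.853-fold with an interval from 0.578 to 1.26, and without control 2 it was 0.04 (adjusted p = 0.992). Mutant 2, also high in muscle markers, was at 40.5. The part of muscle tissue in the level of control 2 was not tested.

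Bid, which caspase 8 cleaves to link death receptors to mitochondria, lies on chromosome 6 from 120891930 to 120916853. It was at 142, 121, 139 and 109 in the controls (128 ± 15.4) and at 151, 131, 134 and 146 in the mutants (141 ± 9.42). Mutants 1 and 4 lay above all controls. Its log2 fold change was 0.14 (adjusted p = 0.805), 1.10-fold with an interval from 0.941 to 1.30. Of its exons, 17.7% overlap those of Bcl2l13 on the opposite strand, a family relative with a mean of 1538. Counting may not have used strand, so reads there cannot be told apart.

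Bad, whose binding to Bcl2 and Bcl-xL is blocked by growth factor signalling, lies on chromosome 19 from 6941861 to 6951899. It was at 238, 272, 231 and 229 in the controls (243 ± 19.96) and at 261, 242, 203 and 249 in the mutants (239 ± 25.1). The groups overlapped throughout, with mutant 3 lowest. The log2 fold change was -0.03 (adjusted p = 0.968), 0.982-fold with an interval from 0.854 to 1.13, and its sign changed without control 2 (0.03) or mutant 3 (0.05). Of its exons, 20.5% overlap those of Gpr137 on the opposite strand (mean 153). Exons also overlapped for Bak1 with Ggnbp1 (18.2%, mean 16.3), for Bax with Gm45808 (12.2%) and for Bcl2 with the antisense gene D630008O14Rik (6.1%).

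Other genes of the pathway were taken from 5 lists. Of 13 further Bcl2 family genes 8 were tested and none was called. The smallest p-values were those of Bmf, a BH3-only gene (960 ± 40.1 in control and 1052 ± 61.3 in mutant, log2 fold change 0.13, adjusted p = 0.437), and Bcl2l13 (1486 ± 61.5 and 1590 ± 39.6, log2 fold change 0.10, adjusted p = 0.467). Bcl2l13 was higher in each mutant than in each control by a narrow margin (1544 in mutant 2, 1540 in control 2). Groups did not overlap for 5.31% of all tested genes. Bcl2l10 was listed at 0 in all libraries, and the Bcl2a1 genes, known from blood cells, and Bcl2l15 had means under 10.

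Of 21 genes for the apoptosome, caspases and their inhibitors, all were tested and none was called, with 14 positive and 7 negative fold changes and a median of 0.01. The smallest p-values were for Apaf1, the scaffold of the apoptosome (899 ± 30.5 and 844 ± 56.9, log2 fold change -0.09, adjusted p = 0.706), and Casp6, an executioner caspase (385 ± 37.0 and 421 ± 27.4, log2 fold change 0.13, adjusted p = 0.711). Of 12 death receptor genes 8 were tested and none was called. They were led by the kinase gene Ripk1 (404 ± 21.4 and 372 ± 21.4, log2 fold change -0.12, adjusted p = 0.666) and the adaptor gene Fadd (231 ± 28.6 and 247 ± 15.4, log2 fold change 0.10, adjusted p = 0.834).

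Of 18 genes for p53 and its targets, 13 had negative fold changes and none was called, with a median of -0.04. Trp53inp1, a p53-induced nuclear protein, was at 767 ± 41.7 in control and 667 ± 62.6 in mutant (log2 fold change -0.21, adjusted p = 0.332). Btg2, an antiproliferative gene, was at 295 ± 19.2 and 260 ± 16.9 (log2 fold change -0.18, adjusted p = 0.466). Of 16 genes for regulators of the family none was called either, with a median of -0.001. Myc, which sensitises cells to apoptosis, was at 897 ± 37.9 and 1003 ± 45 (log2 fold change 0.16, adjusted p = 0.219). Trib3, a target of the stress factor Atf4, was at 14.1 ± 1.397 and 8.93 ± 2.79 (log2 fold change -0.64, adjusted p = 0.551), close to the filter. Each mutant was below each control for Trib3, again narrowly (12.9 in mutant 4, 13.2 in control 4). Of the 71 genes tested in the 5 lists together, limma called 0, beside 0.57% of all tested genes. At an unadjusted p under 0.05 limma gave 6 of the 71, beside 8.7% of all tested genes. The edgeR and DESeq2 tests called 0 as well, beside 0.577% and 1.56% of all genes. Limma without control 4 and mutant 2 also called 0, beside 1.07%. At an unadjusted p under 0.05 these 3 fits gave 7, 4 and 8 of the 71. The share of all tested genes was not computed for them, so nothing is read from these counts.

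The genes most like Bcl2 over the 8 libraries, by Pearson's r of log2 values among 11460 other genes averaging 50 or more, were Zswim4 (r = 0.991), Eno3 (0.986), Mre11a (0.981), Shroom3 (0.980) and Ift140 (0.968). Zswim4 encodes a zinc finger protein, Eno3 an enolase, Mre11a a DNA repair nuclease, Shroom3 an actin-binding protein that shapes epithelial cells, and Ift140 a protein of transport in cilia. Each was, like Bcl2, higher in control 4 than in any other control. They were chosen by r with Bcl2 over these same libraries, so a shared pattern follows from the choice. Zswim4, for example, ranged from 592 to 638 in controls 1 to 3 and from 697 to 740 in the mutants, with control 4 at 722. None of these 5 was called, with adjusted p from 0.0925 for Shroom3 to 0.624 for Mre11a. Among the members, Bcl2l11 came next by this measure, at rank 291.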

How the data were processed

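Poly(A) RNA of kidneys at E13.5 was sequenced from 500 ng per library, per the labels' protocols, with 4 control and 4 mutant libraries. TopHat2 2.0.12, HTSeq and DESeq2 1.4.5 are named for mm10 (GRCm38), per the submitters' processing notes. The annotation and the use of strand are not given in the sources used here. The authors deposited per-library signal values, which are gene read counts divided by a size factor. Whole reads were recovered from them (100% of values within 0.01 read of a whole number). The deposited table also holds the authors' fold change (a ratio of means), log2 fold change and p-values, per the file headers.

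Values were analysed as log2(value + 1) for 13692 genes with a mean of at least 10, with limma 3.58.1 (trend) in R 4.3.3, two-sided. Recovered reads were tested with edgeR 4.0.16 and DESeq2 1.42.0 as alternatives. The steps were tested on simulated data. Samples were grouped by the genotype in their titles. Members and lists were chosen with earlier results of these data known. All members were named, with the 2 smallest p of each pathway list (none held a called gene) and the 5 genes most like Bcl2. Lengths came from GENCODE vM21. Promoters came from RefSeq GRCm38.p6 for 9 members, and Pmaip1, on chromosome 18, was left out of the search. The pathway lists hold synonyms where needed, and Ahsp had no match in the table. Depth limits low members, as their reads per library show. Figures used matplotlib 3.10.9.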

Additional observations from a re-analysis of the deposited data

Results flagged for a closer look

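Among 46 groups of 4 values (members, ratios and named pathway genes, by genotype), 2 held a library far from the other 3, where chance gives about 2.3. Bax was at 620.0 in control 3, against 596 to 598 in the other controls. Trib3 was at 16.2 in control 1, against 13.2 to 13.6 in the other controls.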

How the results depend on the processing

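Of 209 alternative values for the 10 members, 195 kept their direction and stayed on the same side of the threshold, 10 changed sign and 4 passed. Those that passed were all of Bcl2: log2 fold change 0.25 by DESeq2 (adjusted p = 0.0451), 0.32 without control 4 (0.0112), 0.35 without control 4 and mutant 2 (0.00993), and 0.25 with the sample number as a replicate block (adjusted p = 0.0278), so that 1 member was called in each. Over all settings its adjusted p ran from 0.00993 to 0.538. Leaving out 1 library at a time gave 0.21 to 0.32 for Bcl2 and from 0 to 1 members called. The sample numbers were not taken as pairs, because the deviations of same-numbered libraries correlated at 0.325, 0.287, 0.294 and 0.064, and control 4 correlated best with mutant 3 (0.154) and mutant 4 with control 3 (0.101), while the other 6 libraries correlated best with their own number.

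Sign changes, none of them called, were Bcl2l1 without control 4 and mutant 2 (0.0029), Bcl2l11 without controls 1 and 2 (-0.0277), and Pmaip1 without both libraries numbered 2 (0.0079) or without controls 1 and 2 (0.11). Bad changed sign with the muscle score as covariate (0.0057), without both libraries numbered 2 (0.0213) and without controls 1 and 2 (0.0464). With 1 library left out, Pmaip1 ran from -0.39 to 0.0351 (without control 2) and Bad from -0.0708 to 0.0496 (without mutant 3). The setting without controls 1 and 2 was chosen after seeing the data. Pmaip1 could not be tested under the filter of 50.

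Over all tested genes, 78 were called, 214 by DESeq2, 232 with the replicate block, 146 without control 4 and mutant 2, 29 without controls 1 and 2 and 2 without both libraries numbered 2. Leaving out 1 library gave 18 (without control 3) to 185 (without control 4). The cause was not tested. Scaling moved the median of all genes by less than 0.01.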
